A study of Mus musculus with 7 samples.

Results

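The signal of every gene was described in 3 livers of mice kept on a high-fat diet (HFD), out of 7 liver samples in the study. The members were the genes with a probe well above background on all 3 HFD arrays, 17618 of the 32451 genes on the array (54.3%). A gene was represented by the brightest such probe, and 21661 of 39429 probes passed. Genes were ranked by the mean over the 3 arrays of the log2 processed signal minus the log2 of that array's 75th percentile, so a level of 0 is the 75th percentile of all spots and each unit is a doubling of signal.

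The animals were male mice of the strain labelled C57/BJ, given either the high-fat diet D12331 or a chow diet (Provimi Kliba) from 6 weeks of age for 20 weeks and killed at 26 weeks. There were 3 HFD and 4 chow samples, with 1 sample on each 1-colour Agilent array, and 0.5 micrograms of total liver RNA was labelled with Cy3. All samples share the sex, the strain label and the age, and the labels name no genetic change. Whether each sample came from its own animal is not stated, so a standard deviation (SD) below is the spread between 3 samples, and so few arrays give each value a limited precision.

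The liver makes most proteins of blood plasma, and the hepatocyte, its main cell, devotes much of its messenger RNA to this export. The same cell burns and stores fatty acids, makes glucose, urea and bile acids, and modifies drugs and steroids. On a diet rich in fat, lipid droplets fill the hepatocyte, and proteins of the droplet surface are among the known marks of a fatty liver. In rodents many liver genes also follow the sex of the animal, through the sex-specific rhythm of growth hormone.

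The ranking is of probe signal, which depends on how well a probe binds its target as well as on the amount of transcript. The share of spots well above background ran from 57.0% to 66.8% over the HFD arrays. No spot carried the scanner's saturation flag, but a median signal at the saturation value of the file header was found for Apoa2 on 1 array and Apoe on 2 arrays, so the levels of these genes are lower limits there. HFD replicate 1 had the highest 75th percentile (971 against 758 and 838) and the highest mean negative control signal (46.9 against 29.9 and 30.8). All 14 hepatocyte markers checked were well above background on each HFD array. The chow scanner files did not follow the chow columns of the authors' deposited table (r of 0.581 to 0.589 across 1615 probes, against at least 0.9999 for HFD) and are not used here.

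Several of the brightest signals came from multicopy families, whose members are so alike that a probe of one can bind transcripts of another. The 60 bases before the start of 9 bright genes (RefSeq, GRCm38.p6) show the likeness of the gene copies, before their starts, for the major urinary protein genes Mup19, Mup2 and Mup18 and the alpha-1-antitrypsin genes Serpina1a, Serpina1c and Serpina1e, beside the single genes Alb, Fabp1 and Cyp2e1. Capitals mark the letters TATAA, searched on the gene's strand and GTTAAT, searched on both strands.
Mup19 (chr4:61782225-61782284, minus strand): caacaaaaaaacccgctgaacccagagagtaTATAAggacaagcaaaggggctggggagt
Mup2 (chr4:60139857-60139916, minus strand): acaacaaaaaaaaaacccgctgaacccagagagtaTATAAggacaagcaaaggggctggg
Mup18 (chr4:61674095-61674154, minus strand): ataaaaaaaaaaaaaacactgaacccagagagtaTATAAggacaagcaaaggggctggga
Serpina1a (chr12:103863620-103863679, minus strand): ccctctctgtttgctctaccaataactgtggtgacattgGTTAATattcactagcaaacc
Serpina1c (chr12:103904951-103905010, minus strand): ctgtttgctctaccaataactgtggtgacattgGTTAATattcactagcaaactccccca
Serpina1e (chr12:103956898-103956957, minus strand): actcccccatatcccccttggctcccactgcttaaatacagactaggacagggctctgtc
Alb (chr5:90460810-90460869, plus strand): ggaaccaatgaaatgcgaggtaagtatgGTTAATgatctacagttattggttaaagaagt
Fabp1 (chr6:71199819-71199878, plus strand): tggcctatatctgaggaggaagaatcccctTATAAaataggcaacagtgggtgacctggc
Cyp2e1 (chr7:140763759-140763818, plus strand): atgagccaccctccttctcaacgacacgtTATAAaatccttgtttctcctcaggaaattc

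In windows of 250 bases before to 50 bases after the start, 99.0% of the aligned bases of Mup19 and Mup2 were identical, and 95.2% of those of Mup19 and Mup18. Serpina1a and Serpina1c were identical at 94.9% of aligned bases, and Serpina1a and Serpina1e at 95.9% with 114 gap positions, whereas the unrelated pair of Fabp1 and Cyp2e1 reached 53.4% in the same alignment. The stretch around GTTAAT that Serpina1a and Serpina1c share lies at a different distance from each annotated start, and the 60 bases of Serpina1e do not line up with either. TATAA was found in the 60 bases of 5.57% of all 32851 promoters of the reference table, and GTTAAT in 1.38%. TATAA began 29, 25 and 26 bases before the start in Mup19, Mup2 and Mup18, 30 bases before it in Fabp1 and 31 bases before it in Cyp2e1. These matches are descriptions of the letters and were not tested for any function. Sequences of probes and transcripts were not compared, so these windows do not show which copies a probe binds. Levels of single members are given below as probe signals, and the copy they belong to is uncertain.

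The ranking was steep. The brightest gene lay at 9.62, which is 789 times the 75th percentile, the gene at rank 100 at 7.87, the gene at rank 500 at 6.18, and the last of the 17618 genes at -5.31. The 10 brightest genes held 3.99% ± 0.54 (SD, n = 3) of the summed signal of all ranked genes, the 100 brightest held 22.9% ± 2.1 and the 500 brightest held 51.5% ± 2.7. By contrast, the 10000 faintest ranked genes together held 2.26% ± 0.27. The order was shared by the 3 arrays: all 100 of the brightest genes were among the 150 brightest on every array, and all 500 of the brightest were among the 1000 brightest on every array. The median gap between neighbours of the 30 brightest was 0.03, while the median SD of the 100 brightest was 0.29 on the log2 scale. That SD includes a difference shared by genes of an array, since HFD replicate 1 was lowest for 99 of the 100 brightest. It does not measure the spread of the difference between 2 genes on the same array. Whether neighbours in the ranking can be told apart was therefore not tested.

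Proteins secreted into plasma or urine led the ranking. Of the 100 brightest genes, 35 belonged to 7 lists made up mainly of secreted proteins, and 13 more to other liver function lists. Another 2 belonged to lists of general cell functions and 1 to a list of another cell type. A further 30 had a symbol but were in no list, and 19 had no official symbol. The 7 lists also hold proteins that stay in the cell, such as the ferritins Ftl1 and Fth1 (ranks 21 and 71), metallothioneins and Mttp. Counts and shares given for these lists include them. The 500 brightest genes are 1.54% of the genes on the array, and 63 of the 139 measured genes of the 7 lists were among them. The 137 genes of the 7 lists that were detected held 12.5% ± 1.1 (SD, n = 3) of the summed signal. The 444 detected genes of all liver function lists held 21.2% ± 1.3.

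**Figure D1:**
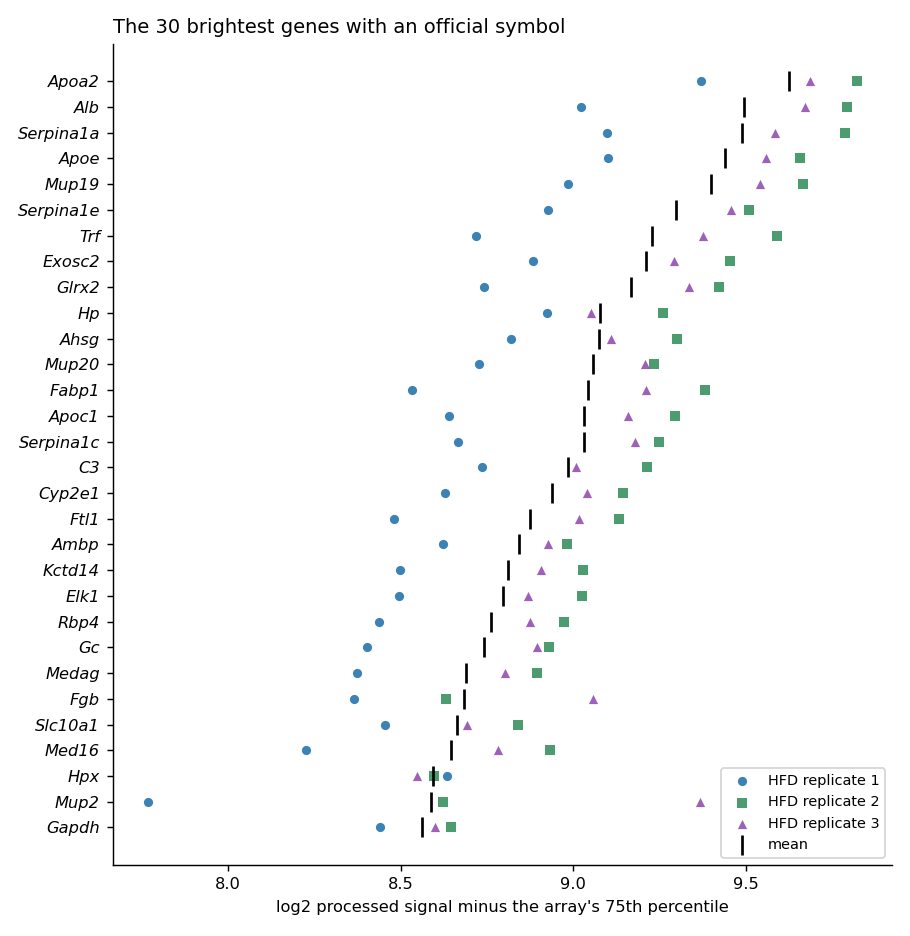
Level of the 30 brightest genes with an official symbol (horizontal axis, log2 processed signal minus the array's 75th percentile), with 1 marker for each of the 3 HFD samples and a vertical tick for their mean. HFD replicate 1 is the lowest of the 3 for nearly every gene, and the spacing between neighbouring genes is smaller than the spread between samples.

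Apoa2, the second protein of high-density lipoprotein, had the highest mean. Its levels were 9.37, 9.82 and 9.68 on HFD replicates 1, 2 and 3, the order used for every set of 3 values below (mean 9.62 ± 0.23). Albumin (Alb), the main carrier protein of plasma, followed at 9.02, 9.79 and 9.67, and Serpina1a, an inhibitor of neutrophil elastase, at 9.10, 9.79 and 9.58. Apoe, a ligand for the uptake of lipoprotein remnants, was at 9.10, 9.66 and 9.56. The ranges of these genes overlapped between arrays. Within arrays, Apoa2 ranked 1 on each of the 3 and Serpina1a 3 on each, whereas Alb ranked 4, 2 and 2 and Apoe 2, 5 and 4. In each of them replicate 1 was lowest, as it was for 99 of the 100 brightest genes.

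Plasma carriers had 23 of 24 measured genes detected on all 3 arrays, with 11 among the 500 brightest. Transferrin (Trf), which carries iron, was at 8.72, 9.59 and 9.38, and fetuin-A (Ahsg), a binder of calcium phosphate, at 8.82, 9.30 and 9.11. Haemopexin (Hpx), the scavenger of free haem, was at 8.64, 8.60 and 8.55 and did not share the low value of replicate 1. Its SD of 0.04 was the smallest of the listed carriers. The retinol carrier Rbp4 averaged 8.76 ± 0.29 and the vitamin D carrier Gc 8.74 ± 0.30. The exception in this list was Shbg, the carrier of sex steroids, which was silent on its only probe. Below, silent means that no probe of a gene was well above background on any of the arrays.

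Apolipoproteins were detected without exception (21 of 21), and 8 were among the 500 brightest. Apoc1 averaged 9.03 ± 0.34 and Apoc3, an inhibitor of triglyceride clearance, 8.45 ± 0.25. Apob, the scaffold of very low-density lipoprotein, averaged 7.16 ± 0.07 and Apoa1, the main protein of high-density lipoprotein, 7.06 ± 0.17. Apoa4, which in mice follows the fat load of the liver, was at 6.99, 5.68 and 6.05, with replicate 1 highest in this case.

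Secreted protease inhibitors had 13 of 21 measured genes among the 500 brightest and a median rank of 420.5. Besides Serpina1a, Serpina1e averaged 9.30 ± 0.32 and Serpina1c 9.03 ± 0.32. Antithrombin (Serpinc1), the main brake on thrombin, averaged 8.55 ± 0.19. Serpina3k, a kallikrein inhibitor, was at 7.71, 8.31 and 8.82. A2m was silent (-6.95, -7.72 and -8.05), while Pzp, a related protease inhibitor of the macroglobulin family, averaged 7.59 ± 0.27.

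The clotting list was complete (21 of 21), with 9 among the 500 brightest. The fibrinogen chain Fgb was at 8.37, 8.63 and 9.06 and the fibrinogen chain Fgg at 8.15, 8.45 and 8.92. Kininogen (Kng1), the precursor of bradykinin, averaged 8.55 ± 0.19 and prothrombin (F2) 7.27 ± 0.16. Replicate 3 held the highest value for 19 of the 21 clotting genes, and it did so for 38.5% of all ranked genes. Genes of a list can shift together, so those counted here and in the lists below are not separate observations.

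Complement was detected in 22 of 22 genes, led by C3, the component on which all its pathways meet, at 8.74, 9.21 and 9.01. C4b averaged 7.64 ± 0.15 and C8g 7.47 ± 0.29. Cfd, which is known mainly from fat tissue, spread most within the list, at -0.40, 3.18 and 2.47. Replicate 1 lay below the 75th percentile for Cfd and the other replicates above it.

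Acute phase and metal-binding genes were all detected (20 of 20). Haptoglobin (Hp), which binds free haemoglobin, averaged 9.08 ± 0.17, the ferritin light chain Ftl1 8.88 ± 0.35 and the ferritin heavy chain Fth1 8.20 ± 0.13. Serum amyloid Saa1 was at 5.67, 5.60 and 6.81 and Saa2 at 5.83, 5.81 and 6.97, while Saa3 averaged 0.48 ± 0.32. Hepcidin (Hamp), the hormone that closes the iron exporter, was at 3.84, 4.01 and 5.46, and its copy Hamp2 at 2.44, 2.63 and 1.81. Replicate 3 was thus high for Saa1, Saa2 and Hamp and low for Hamp2. Metallothionein Mt1 averaged 5.32 ± 0.38.

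The major urinary proteins carry pheromones in mouse urine and are made in the male liver. All 10 measured genes were detected, 8 were among the 500 brightest, and the family held 1.93% ± 0.42 of the summed signal. Mup19 averaged 9.40 ± 0.36 and Mup20, the male pheromone darcin, 9.06 ± 0.29. Mup2 was at 7.77, 8.62 and 9.37, a wider spread than those of Mup19 and Mup20. The copies are known to have near-identical transcripts, so a probe's signal cannot be assigned to a single copy.

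Among metabolic lists, fatty acid oxidation stood highest by median rank. All 38 of its genes were detected and 14 were among the 500 brightest, with a median rank of 783. Fabp1, the fatty acid-binding protein of the hepatocyte, was at 8.53, 9.38 and 9.21. The mitochondrial thiolase Acaa2 was at 7.86, 8.22 and 8.27. Replicate 2 held the highest value for 28 of these 38 genes, against 30.2% of all ranked genes. Cpt1a, the gate of fatty acids into mitochondria, averaged 4.78 ± 0.11.

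Fatty acid synthesis genes were all detected (29 of 29) but sat lower, with a median rank of 2558 and 3 among the 500 brightest. Scd1, which makes oleate, was at 7.59, 7.44 and 7.74, and Dgat2, which closes triglyceride synthesis, at 7.23, 7.26 and 7.25. Their spread between samples was small beside their level. Elovl5 averaged 6.24 ± 0.04. Fasn, the fatty acid synthase itself, averaged 1.37 ± 0.27 at rank 5587, on a probe that cannot be set against those of the other enzymes.

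Genes of lipid droplets and lipid uptake were detected on all 3 arrays in 24 of 25 cases, with 2 among the 500 brightest. Plin2, the coat protein of hepatocyte droplets, was at 7.38, 7.04 and 7.30. The intestinal fatty acid-binding protein gene Fabp2 averaged 6.48 ± 0.11 and Cideb, which loads lipid onto lipoproteins, 6.17 ± 0.10. Cidea and Cidec, droplet-fusion proteins typical of brown and white fat, averaged 5.42 ± 0.28 and 4.75 ± 0.28, within the brightest 10% of the ranking. Cd36, a fatty acid transporter, averaged 1.81 ± 0.29 and Pparg, the regulator of fat cell formation, 2.23 ± 0.05. Plin1, the droplet coat of fat cells, was well above background on 1 array.

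Glucose and glycogen genes were detected in 32 of 33 cases, and 11 were among the 500 brightest. Gapdh averaged 8.56 ± 0.11 and Fbp1, an enzyme of glucose synthesis, 8.09 ± 0.23. Pck1, the cytosolic enzyme that opens glucose synthesis, was at 5.70, 6.56 and 6.54, and G6pc, which releases free glucose, at 3.75, 4.34 and 5.08. Pck2, the mitochondrial counterpart of Pck1, was silent.

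The urea and amino acid list was detected in full (47 of 47), with 4 among the 500 brightest. Bhmt, which remethylates homocysteine with betaine, was at 7.75, 8.30 and 8.65, Ass1, an enzyme of the urea cycle, at 7.38, 8.03 and 7.83, and Upb1, an enzyme of pyrimidine breakdown, at 5.94, 6.53 and 6.50. Each of the 3 had its low value on replicate 1. Only 1 of the 47 genes was highest on that replicate, against 31.3% of all ranked genes. This was not particular to the list. On replicate 1, 1 of 47 ribosome genes and 0 of 42 respiratory chain genes were highest, but 14 of 35 cholesterol and bile acid genes. Cps1, the entry enzyme of the urea cycle, averaged 3.49 ± 0.55 at rank 2427.

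Cytochrome P450 genes were detected on all 3 arrays in 36 of 38 cases, and 7 were among the 500 brightest. Cyp2e1, which oxidises ethanol and ketones, was at 8.63, 9.14 and 9.04, Cyp2d26 averaged 8.29 ± 0.36 and Cyp2d11 7.82 ± 0.39. Cyp3a44 was silent, and Cyp1a1, which is induced by aromatic pollutants, was well above background on 2 arrays.

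Conjugation enzymes had 10 of 41 measured genes among the 500 brightest, led by the glutathione transferases Mgst1 (8.29 ± 0.26) and Gsta3 (8.09 ± 0.19) and the carboxylesterase Ces3a (7.87 ± 0.38). The sulfotransferases Sult2a1 and Sult3a1 were silent.

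Cholesterol and bile acid genes were all detected (35 of 35), with a low median rank of 3232. The bile salt importer Slc10a1 led at 8.46, 8.84 and 8.69, although its other probe lay 5.02 lower on the log2 scale. Hsd3b7, an enzyme of bile acid synthesis, averaged 7.03 ± 0.26. Cyp7a1, which sets the rate of bile acid synthesis, was at -0.32, 1.46 and -2.12. That spread (SD 1.79) exceeds most in the data, and on replicates 1 and 3 the gene lay below the 75th percentile.

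Genes of the ribosome and of the respiratory chain had the smallest median SDs of the 36 lists. All 47 ribosome and elongation genes were detected, 22 were among the 500 brightest, and they held 2.15% ± 0.11 of the summed signal. Rpl10 averaged 7.63 ± 0.15, Rps14 7.55 ± 0.17 and Rplp0 7.42 ± 0.17. The median SD of the list was 0.09, against 0.17 for all ranked genes. Respiratory chain genes (42 of 42 detected, 11 among the 500 brightest) had a median SD of 0.13, led by Cox6a1 at 8.21 ± 0.17, Uqcrq at 7.55 ± 0.19 and Atp5b at 7.40 ± 0.21.

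The list labelled antioxidant in the figures also holds other redox enzymes, such as alcohol and aldehyde dehydrogenases and urate oxidase. It placed 8 of 26 genes among the 500 brightest. These were led by the selenium enzyme Gpx1 (8.38 ± 0.14), the superoxide dismutase Sod1 (7.75 ± 0.20) and the alcohol dehydrogenase Adh1 (7.72 ± 0.15). Genes of protein folding in the endoplasmic reticulum were all detected (25 of 25), with a median rank of 2039. None was among the 500 brightest, which are only 1.54% of the genes on the array. The list was led by Pdia6 (6.10 ± 0.25), Hsp90b1 (6.03 ± 0.18) and Hspa5 (5.65 ± 0.30), the last of these the chaperone BiP. On replicate 3, 24 of these 25 genes had their highest value, against 38.5% of all ranked genes.

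**Figure D2:**
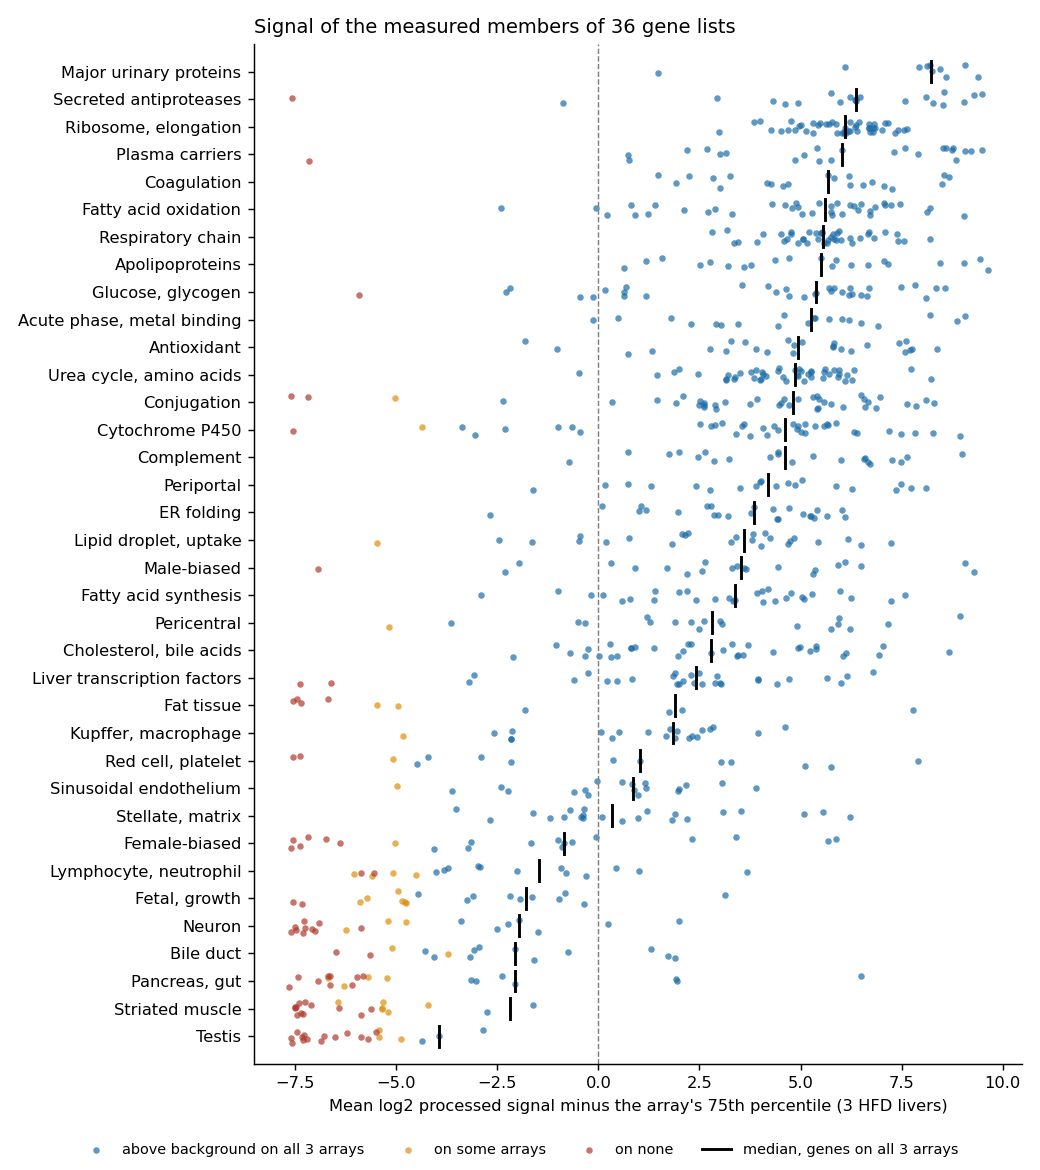
Mean level over the 3 HFD samples (horizontal axis, log2 processed signal minus the array's 75th percentile) of every measured gene in 36 gene lists, coloured by the arrays on which it was well above background. The black bar is the median of the genes detected on all 3 arrays, and lists are ordered by it from major urinary proteins at the top to testis genes at the bottom.

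Transcription factors of the hepatocyte were mostly detected, at a lower median level (2.42) than the other liver function lists. Of 30 measured factors 28 were detected on all 3 arrays, 1 was among the 500 brightest, and the median rank was 3779. Atf5 averaged 6.78 ± 0.13 and Hnf4a, the nuclear receptor that maintains hepatocyte identity, 6.16 ± 0.31 at rank 509, just outside the 500 brightest. Creb3l3 averaged 5.99 ± 0.06. The median SD of the list was 0.16. Cux2, a factor of the female liver, and Zhx2, a repressor of fetal liver genes, were silent.

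Zonation markers of both ends of the lobule were present. Pericentral genes were detected in 18 of 19 cases and periportal genes in 20 of 20, with 3 and 5 among the 500 brightest. Glul, the glutamine synthetase of the cells around the central vein, averaged 5.95 ± 0.13, and the periportal Cyp2f2 averaged 7.49 ± 0.22. In whole liver, fewer cells of a type and less RNA per cell cannot be told apart.

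Silence was rare among liver functions. Of 455 measured liver function genes 444 were detected on all 3 arrays and 8 were well above background on none, whereas 32.4% of all genes and 25.8% of genes with an official symbol were silent by that rule. The lists name genes of known liver functions and were chosen with earlier results of these data known. Their low silent share is therefore not an independent result. The 8 were Shbg, A2m, Cyp3a44, Sult2a1, Sult3a1, Pck2, Cux2 and Zhx2. Their mean levels ran from -7.60 for Sult2a1 to -5.93 for Pck2. The lowest level of any probe well above background was -4.80, -5.63 and -5.96 on the 3 arrays. Each of the 8 was measured by 1 probe. Each has a bound and not a level of 0: a low signal of a probe does not show that the transcript is absent. Of the 8, Cyp3a44, Sult2a1, Sult3a1 and Cux2 are female-biased genes and all the animals were male. Whether sex has a part in their silence was not tested.

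The background flag of the scanner did not follow signal alone. The faintest listed genes detected on all 3 arrays were Itga2b (-4.49), Top2a (-4.47) and Tnp1 (-4.37). Outside it, Cftr averaged -3.71, Cyp1a1 -4.35 and Mpo -4.52, so the signals of genes inside and outside overlapped. At the edge of the 500 brightest, Gpd1 (6.20) and Rps28 (6.18) were inside and Cideb (6.17) was outside.

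**Figure D3:**
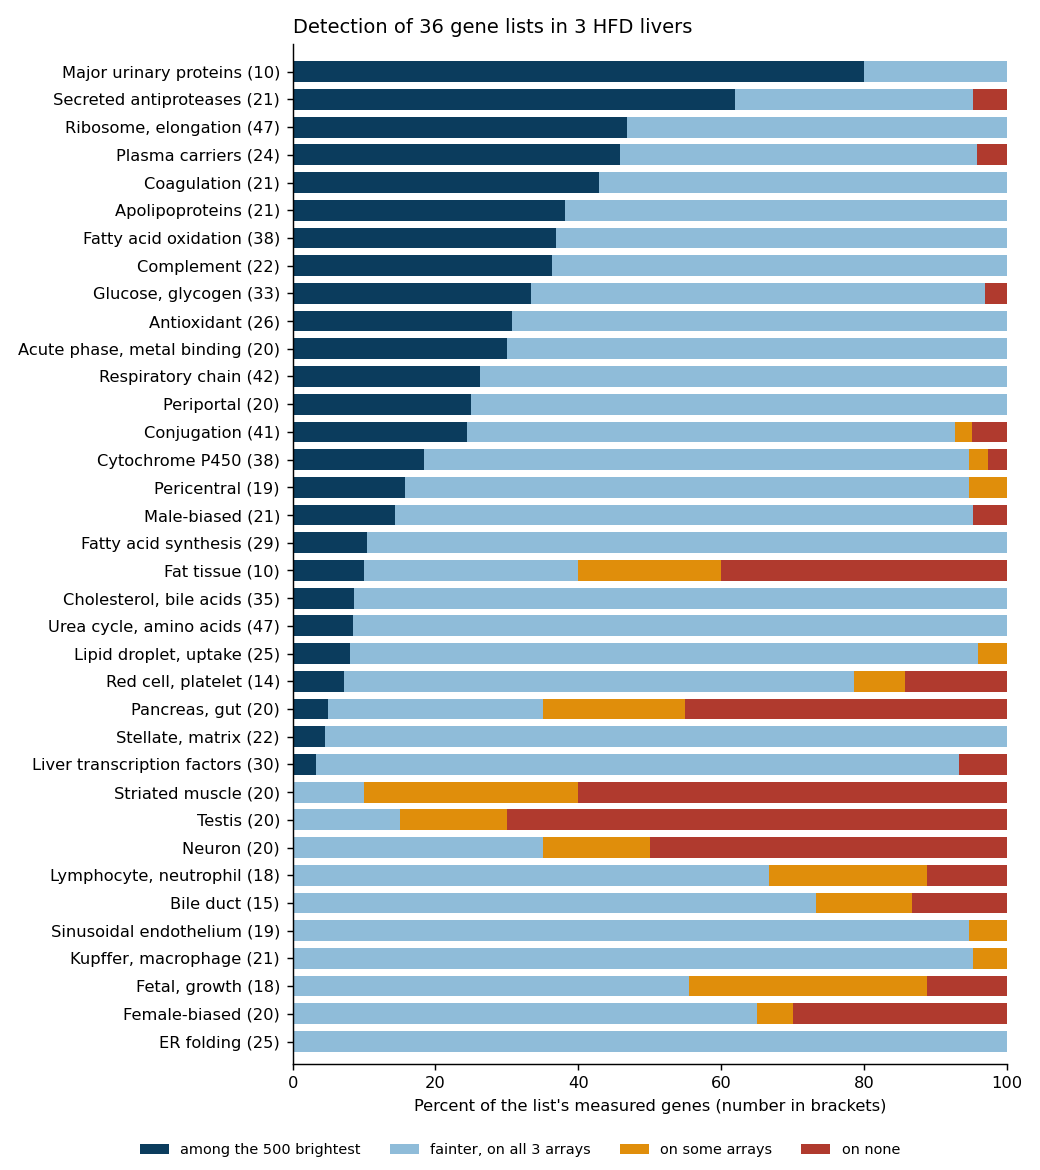
Share of each list's measured genes (number in brackets) that were among the 500 brightest, detected on all 3 arrays but fainter, well above background on some arrays, or on none. Dark segments reach 80.0% for major urinary proteins, and the testis, striated muscle and neuron lists hold the longest silent segments.

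Of 20 measured female-biased genes, 13 were detected on all 3 arrays and 6 on none (Cyp3a44, Sult2a1, Sult3a1, A1bg, Cux2 and Slc22a26). None was among the 500 brightest, which are 1.54% of the genes on the array. The silent share, 6 of 20, is near the 25.8% of all genes with an official symbol, and the 65.0% detected on all 3 arrays is near their 63.3%. Male-biased genes were detected on all 3 arrays in 20 of 21 cases, Moxd1 being silent, and 3 were among the 500 brightest. The male-biased list was led by Serpina1e, Mup20 and Ugt2b38, the last at 6.50 ± 0.14. Among female-biased genes Cyp2a4 was at 6.14, 6.35 and 5.11, Cyp4a14 averaged 5.67 ± 1.20 and Cyp3a16 averaged 3.41 ± 0.42, and each of these was lowest on replicate 3.

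Both sex-biased lists varied between the 3 samples more than most genes did. An SD over 1 on the log2 scale was found for 0.965% of all ranked genes, for 7 of 20 male-biased genes (35.0%) and for 6 of 13 female-biased genes (46.2%). Hsd3b5, a steroid-reducing enzyme of the male liver, was at -3.63, -0.37 and 4.97, the largest SD (4.34) of all 17618 ranked genes. Slco1a1, a male-biased transporter of organic anions, was at -1.09, 0.98 and 2.81. The female-biased Cyp2b13 was at 0.60, -0.26 and -3.32 and Cyp2b9 at 0.41, 0.09 and -2.46. Replicate 3 was highest for 16 of the 20 male-biased genes and for none of the 13 female-biased genes, in mice all labelled male. Over all ranked genes that share was 38.5%. The genes in these 2 lists are known to shift together, so they are not separate observations, and a mean over the 3 samples describes them poorly.

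**Figure D4:**
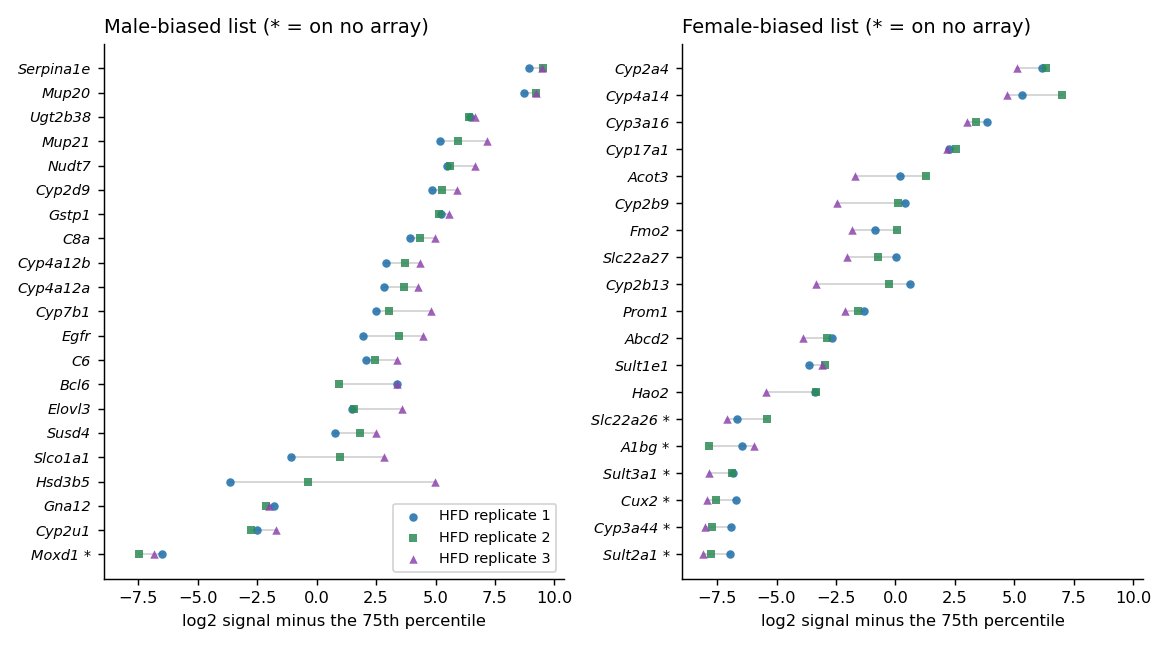
Level in each of the 3 HFD samples (horizontal axis, log2 processed signal minus the array's 75th percentile) of genes of the male-biased and the female-biased list (1 measured female-biased gene is not drawn), with a grey line over their range and an asterisk for genes well above background on no array. Replicate 3 lies at the right end of most male-biased genes and at the left end of most female-biased genes, and Hsd3b5 spans from -3.63 to 4.97.

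Fetal and growth genes were mostly faint. Of 18 measured, 10 (55.6%) were detected on all 3 arrays, against 63.3% of all genes with an official symbol. The 2 on none were Igf2 and the embryonic globin Hba-x. Alpha-fetoprotein (Afp) averaged -1.94 ± 0.42. Ly6d led the list at 4.61, 2.75 and 2.07. Of the 10 detected genes 9 were highest on replicate 1, against 31.3% of all ranked genes.

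Markers of other liver cells were detected at lower levels than hepatocyte genes. Kupffer cell and macrophage genes were detected on all 3 arrays in 20 of 21 cases. None was among the 500 brightest, which are 1.54% of the genes on the array. The detected genes held 0.105%, 0.0449% and 0.0428% of the summed signal. All 20 of these genes had their highest value on replicate 1, against 31.3% of all ranked genes. Markers of 1 cell type can shift together, so the 20 genes are not separate observations. Cd5l, secreted by macrophages, was at 5.37, 4.20 and 4.29, Csf1r, the receptor for their growth factor, at 4.37, 3.82 and 3.64, and the Kupffer marker Clec4f at 3.20, 2.40 and 2.70. The widest spread in the list was that of the scavenger receptor Marco, at 3.98, 1.04 and 1.68. Replicate 1 is also the array with the highest negative control signal and the one with the lowest value for 99 of the 100 brightest genes. The part of these measures in one another was not tested.

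Sinusoidal endothelial genes were detected in 18 of 19 cases, led by Clec4g (3.91 ± 0.13), Stab2 (3.07 ± 0.20) and Gpr182 (2.16 ± 0.33). Stellate and matrix genes were detected in 22 of 22 cases, led by Dcn (6.22 ± 0.16), Sparc (5.56 ± 0.32) and Ecm1 (5.08 ± 0.13). The collagen gene Col1a1 was at 1.41, 0.72 and -0.41. Of the 22 stellate genes 16 were highest on replicate 1, against 31.3% of all ranked genes.

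Bile duct genes were near the lower end in level, and the bile duct keratin Krt19 averaged -2.05 ± 0.41. Of 15 measured, 11 (73.3%) were detected on all 3 arrays and 2, Cldn4 among them, on none. Lymphocyte and neutrophil genes were detected in 12 of 18 cases (66.7%), with Cd8a and Klrb1c on none. For comparison, 63.3% of all genes with an official symbol were detected on all 3 arrays. The brightest lymphocyte and neutrophil gene was Cd4, a receptor of T helper cells, at 3.67 ± 0.50. Other T cell genes of the list were far lower. Cd3e averaged -0.30 and Cd3g -4.02, and Cd8b1 was well above background on 1 array. Nkg7 of cytotoxic lymphocytes averaged 0.43 ± 0.20. Red cell and platelet genes were led by the alpha globins Hba-a2 (7.57, 8.20 and 7.97) and Hba-a1 (5.33, 6.02 and 5.94). Epb42, a gene of red cell precursors, was silent.

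Fat tissue markers were split. Of 10 measured genes, 4 (40.0%) were detected on all 3 arrays, against 63.3% of all genes with an official symbol. Adipoq, Lep, Ucp1 and Slc7a10 were well above background on no array, and Retn and Plin1 on some. Car3, a carbonic anhydrase known from fat, muscle and male liver, was at 7.63, 7.88 and 7.86, and Fabp4, the fatty acid-binding protein of fat cells and macrophages, averaged 2.06 ± 0.26. The other detected genes were Cfd, at -0.40, 3.18 and 2.47, and Krt79, at -1.81 ± 0.13. Adipoq and Lep, the genes of the fat hormones adiponectin and leptin, were thus not well above background. The droplet genes Cidea and Cidec were at ranks 880 and 1346.

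Lists of other tissues marked the lower limit. Of 60 neuron, testis and muscle genes 12 were detected on all 3 arrays and 36 on none. None of the 60 was among the 500 brightest, which are 1.54% of the genes on the array. The pancreas and gut list had 9 of 20 genes silent, with Pnlip (-7.66), Cpb1 (-7.43) and Try4 (-6.93) lowest in signal, and its bright exception, Fabp2, also stood in the lipid list. By class of gene, 65.0% of 19661 protein-coding genes were detected on all 3 arrays, 27.4% of 792 long noncoding RNAs and 44.4% of 189 transcribed pseudogenes. No long noncoding RNA with an official symbol was among the 500 brightest. Protein-coding genes among the 500 brightest spanned a median of 8.95 kb of the genome, against 21.8 kb for all detected genes and 10.6 kb for silent genes.

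Bright genes outside the lists rested on probes that often disagreed. Exosc2, a subunit of the RNA exosome, averaged 9.21 ± 0.29 on the gene's only probe. Glrx2, a mitochondrial glutaredoxin, averaged 9.17 ± 0.37, with its next probe 7.54 lower. For Kctd14 (8.81 ± 0.28) and the transcription factor Elk1 (8.80 ± 0.27) the next probe lay 14.6 and 14.5 lower, at or near background. For Medag (8.69 ± 0.28) the gap was 3.80. A gap over 5 log2 units to the next probe of the same gene was found in 14 of the 38 named genes with over 1 probe among the 100 brightest, in 35 of 129 among the 500 brightest, and in 12.1% of 4245 such genes over the whole ranking. Of the 35, 32 were in no list. Of the listed genes Mup4 had the widest gap, 9.14. The identity of these bright signals cannot be taken from the gene name alone.

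**Figure D5:**
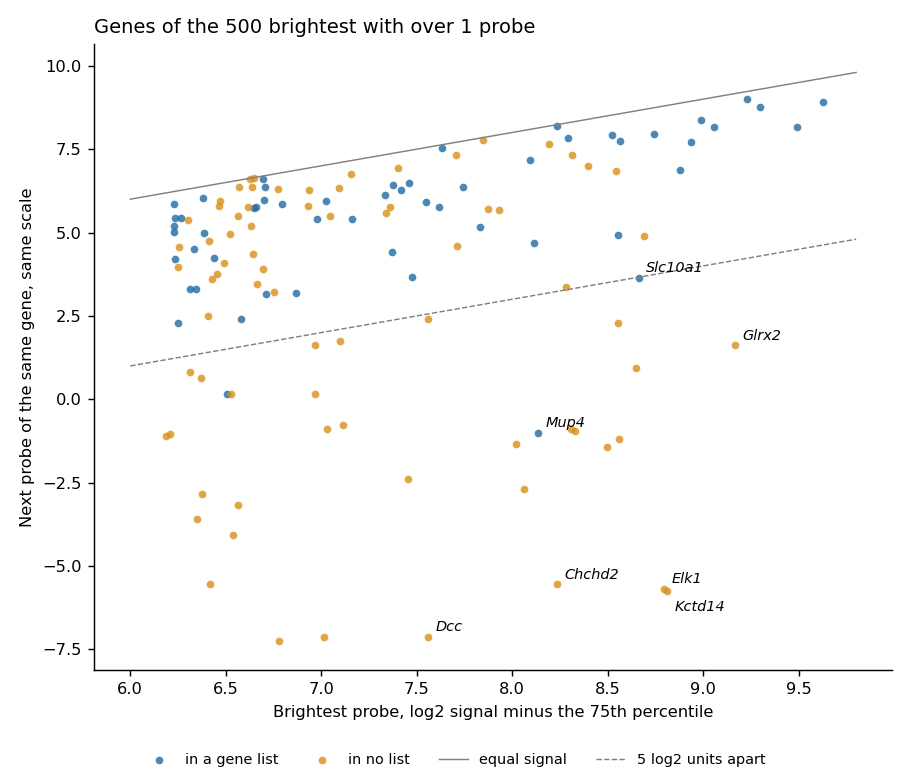
Level of the brightest probe (horizontal axis) and of the next probe (vertical axis) of each named gene among the 500 brightest that has over 1 probe, both as log2 processed signal minus the array's 75th percentile. Points below the dashed line differ by over 5 log2 units, and 32 of these 35 genes are in no gene list.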

How the data were processed

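Total RNA was labelled with Cy3 and hybridised to 1-colour Agilent arrays, per the labels' protocols. The deposited scanner files hold spot intensity values, and per the file headers the processed signal had its background subtracted by Feature Extraction 10.7.3.1. In the submitters' processing notes the version is 9.1. The authors also deposited log2 values for 1615 probes, whose normalization is not given in the sources used here. They served as a check of the HFD arrays alone.

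Control spots and outlier spots were left out, spots of a probe were averaged, and a probe was well above background where over 50% of its spots were. A RefSeq gene table (GRCm38.p6) gave names to 27234 of 39429 probes by accession, and the other 12195 are not named here. Python 3.11.15, pandas 2.3.3 and, for the normexp alternative, limma 3.58.1 (R 4.3.3) were used. The ranking was checked on simulated data. No test was run: the analysis is a description of 3 samples, with mean and SD. The members and the 36 gene lists were chosen with earlier results of these data known. The genes named were the 30 brightest, the 3 brightest and up to 6 silent members of a list, a fixed set of genes and the 5 brightest in no list. Other genes in the text (such as Pzp, Cpt1a, Hsd3b5, Slco1a1, Marco and those at the edges of the rule) were chosen after their values were seen. A planned count of promoter motifs is void, since 59 of 81 named genes among the 100 brightest (72.8%) had a promoter in the table. The letters TATAA and GTTAAT were chosen after the data were seen. No record of H19 was found through the accessions, and some genes of the naming rule and 1 gene of the female-biased plot are not reported here.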

Additional observations from a re-analysis of the deposited data

How the results depend on the processing

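The number of detected genes, the number of liver function genes among the 500 brightest and the 8 silent liver function genes stayed within 1.5 times their value under every alternative run. Detection rests on the scanner's flags, so settings that change only the signal or its scale could not move the counts of detected and silent genes, and without a detection filter there is no count of detected genes. The share of signal in the 100 brightest genes, 22.9%, moved to 30.9% when the genes without a RefSeq name were left out, since fewer genes then share the total. With 1 replicate left out in turn, 17661 to 19332 genes were detected, the share ran from 22.2% to 24.1%, liver function genes among the 500 brightest from 114 to 121 and silent ones from 8 to 9. Of the 100 brightest genes, 92 were shared with a ranking after normexp, 78 with one on the mean of a gene's probes and 87 with multicopy families counted as 1 gene. With the faintest probe of each gene, an alternative added after the data were seen, 71 were shared and 119 liver function genes were among the 500 brightest. Quantile normalization, another percentile, kept outlier spots and detection on 2 of 3 arrays left all 100 in place. Of 947 other values, 884 stayed within 1.5 times or 1 SD, and 28 of the others moved when no detection filter was used, which raises the number of ranked genes. No paired analysis was possible because no result comes from a test between groups. Probe signal limits the ranking: a probe near saturation or one that binds several copies gives no exact level, and a silent gene has only a bound.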
